A study of Homo sapiens with 8 samples.

Results

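The nuclear-encoded respiratory chain genes are the 57 genes in the deposited tables that code, in the nuclear genome, for structural subunits of mitochondrial complexes I to IV. They were chosen by name from a list of subunits and matched to NCBI gene numbers, not by their measured values. Earlier results of these data were known when the list was chosen. The genes are 57 of the 25702 listed. Complex I (NADH dehydrogenase) contributed 34 genes, complex II (succinate dehydrogenase) 4, complex III (cytochrome bc1 complex) 9 and complex IV (cytochrome c oxidase) 10. The genes lie on 19 chromosomes, 3 of them on chromosome X.

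The study performed RNA-seq on SUIT2, a human pancreatic ductal adenocarcinoma (PDA) cell line, to ask which genes respond to loss of the homeobox transcription factor EN1. All cells carried an shRNA, introduced per the study's methods with a virus. The 4 control libraries are labelled shScr (a scramble shRNA, replicates 1 to 4), and the other 4 carried an shRNA against *EN1*, 2 libraries of the construct shEN1 #1 (replicates 1 and 2) and 2 of shEN1 #2 (replicates 1 and 2). The labels do not say that replicates were separate cultures, so p-values measure only the spread between these libraries, which may be technical.

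Complexes I and II pass electrons from NADH and succinate to ubiquinone, complex III passes them on to cytochrome c, and complex IV hands them to oxygen. Complexes I, III and IV pump protons across the inner mitochondrial membrane, and ATP synthase uses the gradient to make ATP. The mitochondrial genome codes for the innermost subunits of complexes I, III and IV, whereas all subunits of complex II and the remaining subunits of the others are made from nuclear genes, transcribed in part under the factors NRF1, GABP (an ETS factor) and YY1.

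Library totals lay between 33423590 and 37810604 counts. Levels are given as CPM, read counts scaled to the TMM-normalized size of the library, whose factors lay between 0.962 and 1.07. The first principal component of log2 CPM, with 44.4% of the variance, separated 2 libraries from the other 6, shScr replicate 4 and shEN1 #2 replicate 1, and the next (17.5%) had shScr replicate 3 and shEN1 #1 replicate 1 at one end. *EN1* itself was at 4.10, 4.504, 4.94 and 2.51 CPM in shScr replicates 1 to 4, at 5.77 and 5.41 CPM in shEN1 #1 and at 1.35 and 6.70 CPM in shEN1 #2. Thus *EN1* was not lower in 3 of the 4 libraries labelled shEN1 (log2 fold change 0.26, SE 0.43, exact permutation test, two-sided p = 0.543), and its log2 fold change lay between 0.057 (without shEN1 #2 replicate 2) and 0.57 (without shEN1 #2 replicate 1) leaving out single libraries and at 0.040 with limma-voom. The libraries are called by their labels throughout. Epithelial markers were abundant (*KRT8* 6094 to 9573 CPM, *EPCAM* 234 to 589 CPM), as was the mesenchymal *VIM* (575 to 2482 CPM), while *PTPRC*, *CD3E*, *CDH5*, *COL1A2*, *COL3A1* and *CPA1*, markers of leukocytes, endothelium, fibroblasts and acinar cells, had 0 counts in all 8 libraries. A count of 0 allows up to 3 counts, or at most 0.0921 CPM in a library. The other markers of these lists were low but not all at 0: the fibroblast *COL1A1* was at 1.02 to 3.99 CPM and the acinar *CELA3A* at 0.305 to 1.06 CPM, and *CD14* reached 0.908 CPM, *PECAM1* 0.603 CPM, *PRSS1* 0.553 CPM and *PDGFRB* 0.241 CPM.

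All 57 genes passed the filter on low counts, with at least 524 counts in every library and at most 14618. Their sum was 5318 to 6400.5 CPM, or 0.525% to 0.640% of the counts of a library. No subunit gene was called between shEN1 and shScr by edgeR, which called 0 of the 14333 tested genes. Many subunit genes were high or low in the same libraries. Of the 57, 27 were highest in the library labelled shScr replicate 3 (14.6% of all tested genes). The lowest library was shEN1 #1 replicate 2 for 19 (9.52%) and shEN1 #2 replicate 1 for 17 (16.3%).

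To show what the promoters of these genes hold in common, the 300 bases around the start of transcription (250 before and 50 after, from RefSeq, GRCh38.p14) were searched on both strands for 3 sets of letters, namely the NRF1 motif, CCGGAAG, bound by ETS factors such as GABP, and AAGATGGC, bound by YY1. A promoter entry was found for 49 of the 57 genes, and the first listed start was used. The NRF1 letters were in 12 of the 49 (24.5%, against 6.29% of all 27305 promoters and 11.7% of the 10915 of tested genes), the ETS letters in 15 (30.6%, against 10.7% and 19.1%) and the YY1 letters in 8 (16.3%, against 3.03% and 5.32%). At least 1 of the 3 was in 29 of the 49 promoters (59.2%, against 17.9% and 31.7%). By complex, the NRF1 letters were in 6 of 30 promoters of complex I, 2 of 3 of complex II, 4 of 7 of complex III and 0 of 9 of complex IV. In the same order, the ETS letters were in 5, 2, 3 and 5 promoters and the YY1 letters in 6, 1, 1 and 0. A match is a description of these letters and not a site shown to be bound. The 250 bases before the start are printed below for the gene of each complex, among those described in detail, with the most matches, 5′ to 3′ on the strand of the gene, with matches in capitals. They are *NDUFA3* (chr19:54102605-54102854, + strand, 2 NRF1 matches), *SDHA* (chr5:218070-218319, + strand, 4 NRF1 matches), *UQCRC1* (chr3:48609647-48609896, - strand, 1 NRF1 match) and *COX5B* (chr2:97645812-97646061, + strand, 2 ETS matches, the last of which runs past the start of transcription).
NDUFA3: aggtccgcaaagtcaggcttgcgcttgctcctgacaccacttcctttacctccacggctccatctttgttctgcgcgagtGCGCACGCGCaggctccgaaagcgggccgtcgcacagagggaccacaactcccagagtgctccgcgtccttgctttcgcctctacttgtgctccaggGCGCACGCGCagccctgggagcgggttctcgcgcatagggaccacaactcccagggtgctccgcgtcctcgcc
SDHA: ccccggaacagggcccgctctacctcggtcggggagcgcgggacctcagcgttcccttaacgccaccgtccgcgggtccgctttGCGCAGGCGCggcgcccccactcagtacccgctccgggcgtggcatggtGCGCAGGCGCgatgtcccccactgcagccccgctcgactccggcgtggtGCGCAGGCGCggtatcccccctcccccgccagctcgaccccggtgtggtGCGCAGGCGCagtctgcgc
UQCRC1: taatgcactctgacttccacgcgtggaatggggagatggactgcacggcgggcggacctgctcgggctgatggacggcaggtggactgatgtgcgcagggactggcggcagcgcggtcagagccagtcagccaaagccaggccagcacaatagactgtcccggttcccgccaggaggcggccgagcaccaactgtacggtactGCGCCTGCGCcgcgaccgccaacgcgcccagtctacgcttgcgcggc
COX5B: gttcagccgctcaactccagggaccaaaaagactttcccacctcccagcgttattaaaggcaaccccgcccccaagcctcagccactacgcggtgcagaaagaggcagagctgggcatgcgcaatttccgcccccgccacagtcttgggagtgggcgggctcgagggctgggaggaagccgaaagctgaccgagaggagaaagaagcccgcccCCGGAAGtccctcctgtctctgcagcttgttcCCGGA
The 4 NRF1 matches of *SDHA*, the most in any of the 49 promoters, begin 166, 117, 68 and 19 bases before the start and are thus spaced by 49 bases each. *NDUFA3* and *UQCRC1* each have a YY1 match too, 21 and 23 bases after the start. In 20 of the 49 promoters there was no match to any of the 3 sets of letters in this window. Among them were those of *NDUFA5*, *NDUFB1*, *NDUFS8*, *UQCRC2*, *COX7B* and *COX7C*, described below.

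Complex I is the entry point for NADH, and its genes were summed at 2449.7, 2579, 2951 and 2694 CPM in shScr replicates 1 to 4, at 2631 and 2388 CPM in shEN1 #1 and at 2442 and 2805 CPM in shEN1 #2. The sum was highest in shScr replicate 3 and lowest in shEN1 #1 replicate 2, and the labels overlapped (2668 ± 213 CPM for shScr and 2566 ± 190.0 CPM for shEN1, mean ± SD, n = 4 each). Per kilobase of the canonical transcript, which allows genes to be compared with each other, the 34 genes lay between 7.72 and 205 CPM per kilobase, with a median of 82.4.

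*NDUFS5*, an accessory subunit of the membrane arm (GRCh37 chromosome 1, 39491990 to 39500308), had the highest level of complex I by the canonical transcript, 205 CPM per kilobase. It was at 94.1, 89.9, 117 and 111 CPM in shScr replicates 1 to 4, at 109 and 89.6 CPM in shEN1 #1 and at 104 and 98.1 CPM in shEN1 #2. *NDUFS8*, a core subunit with iron-sulfur clusters on the path to ubiquinone (chromosome 11, 67798084 to 67804111), came next at 185 CPM per kilobase. The order depends on the length used: with the median coding transcript *NDUFC2* was at 362, *NDUFV1* at 306, *NDUFS8* at 230.4 and *NDUFS5* at 196 CPM per kilobase. *NDUFS8* was at 119, 128, 143 and 158 CPM in the shScr libraries, at 117 and 138 CPM in shEN1 #1 and at 138 and 147 CPM in shEN1 #2. Both genes varied little (1.31-fold and 1.35-fold from the lowest to the highest library), and the labels overlapped.

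*NDUFA5*, an accessory subunit of the matrix arm, had the lowest level per kilobase (7.72 CPM per kilobase, or 12.1 with the median length of its coding transcripts). Its CPM in the shScr libraries was 50.8, 47.7, 37.3 and 32.1, that in shEN1 #1 was 54.5 and 36.4 and that in shEN1 #2 was 37.4 and 43.4. Unlike the complex as a whole it was highest in shEN1 #1 replicate 1, and it was lowest in shScr replicate 4.

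*NDUFB1*, a small accessory subunit of the membrane arm (chromosome 14, 92582466 to 92588261), varied most of all 57 genes, 2.45-fold. Its level was 16.9, 27.5, 37.7 and 25.5 CPM in shScr replicates 1 to 4, 28.2 and 15.4 CPM in shEN1 #1 and 17.5 and 29.8 CPM in shEN1 #2. It was high in shScr replicate 3 and low in shScr replicate 1, shEN1 #1 replicate 2 and shEN1 #2 replicate 1, so that both labels held high and low libraries. Its difference between labels was the largest in size among the 57 genes in the fit of all 8 libraries and was not called (log2 fold change -0.24, SE 0.28, 95% interval -0.86 to 0.37, edgeR's quasi-likelihood test, p = 1.00 after Benjamini-Hochberg adjustment, exact permutation p = 0.600). Leaving out single libraries moved this log2 fold change between -0.41 and -0.037.

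*NDUFA3*, another membrane arm accessory subunit, varied 2.17-fold: 20.8, 19.1, 41.4 and 30.7 CPM in the shScr libraries, 28.9 and 20.6 CPM in shEN1 #1 and 25.2 and 25.4 CPM in shEN1 #2. The highest and the lowest library were both labelled shScr. Of its canonical transcript, 15.9% lies opposite an exon of *TFPT*, and the strand setting of the counting is not given in the sources used here, so some of its counts may belong to that gene. *NDUFA2* and *NDUFB2* share exon sequence with an opposite gene in the same way (18.5% with *TMCO6* and 24.3% with *NDUFB2-AS1*).

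*NDUFS7*, a core subunit that holds the last iron-sulfur cluster before ubiquinone, had the largest positive difference of the 57 genes in the fit of all 8 libraries. It was at 33.1, 41.5, 47.7 and 49.95 CPM in shScr replicates 1 to 4, at 40.2 and 56.0 CPM in shEN1 #1 and at 41.0 and 56.9 CPM in shEN1 #2. The 2 highest libraries were labelled shEN1 and the lowest shScr, but the other shEN1 libraries lay below the other 3 shScr libraries (log2 fold change 0.17, SE 0.17, 95% interval -0.21 to 0.55, edgeR adjusted p = 1.00, exact permutation p = 0.457). Leaving out single libraries moved the value between 0.066 (without shScr replicate 1, where *SDHA* was at 0.16) and 0.25, so its place as the largest does not hold in each of these fits. Among the roles within complex I, 19 of 20 membrane arm accessory genes, 7 of 8 matrix arm accessory genes and 4 of 6 core genes had a log2 fold change below 0, none of them called.

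Complex II oxidizes succinate and is the only one of the 4 that is also an enzyme of the TCA cycle. Its 4 genes summed to 695, 611, 548 and 655 CPM in shScr replicates 1 to 4, to 601 and 674 CPM in shEN1 #1 and to 647 and 619.7 CPM in shEN1 #2 (627 ± 62.8 CPM and 635 ± 31.9 CPM, mean ± SD, n = 4 each). Here shScr replicate 3, which had the highest sums of the other 3 complexes, had the lowest sum.

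This order came from *SDHA*, the flavoprotein that binds succinate (chromosome 5, 218418 to 257197), whose NRF1 matches are shown above. It was at 367, 273, 259 and 381 CPM in the shScr libraries, at 269.8 and 392 CPM in shEN1 #1 and at 371 and 324 CPM in shEN1 #2. The libraries shScr replicates 1 and 4, shEN1 #1 replicate 2 and shEN1 #2 replicate 1, stood at 367 CPM or more, and the remaining libraries at 324 CPM or less, 2 of each label on either side. The log2 fold change was 0.08 (SE 0.17, 95% interval -0.29 to 0.45, edgeR adjusted p = 1.00, exact permutation p = 0.600). Reads of the pseudogenes *SDHAP1* to *SDHAP4* could be split with *SDHA* in the counting, and these were at 2.17 to 13.9 CPM.

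*SDHB*, the iron-sulfur subunit, was at 56.5, 58.4, 53.3 and 44.8 CPM in the shScr libraries, at 61.4 and 48.7 CPM in shEN1 #1 and at 49.97 and 50.5 CPM in shEN1 #2. *SDHD*, a membrane anchor (chromosome 11, 111957548 to 111990739), was at 157, 175, 129 and 127 CPM in the shScr libraries, at 161 and 131 CPM in shEN1 #1 and at 128 and 135 CPM in shEN1 #2. Both were lowest in shScr replicate 4 and high in shScr replicates 1 and 2 and shEN1 #1 replicate 1, an order unlike that of *SDHA*. For *SDHD* the log2 fold change was -0.08 (SE 0.13, 95% interval -0.38 to 0.22, edgeR adjusted p = 1.00, exact permutation p = 0.686). *SDHC*, the other anchor, varied only 1.17-fold, from 98.0 to 114 CPM.

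Complex III carries electrons from ubiquinol to cytochrome c. Its 9 genes summed to 1141, 1245, 1332 and 1094 CPM in shScr replicates 1 to 4, to 1286 and 1067 CPM in shEN1 #1 and to 1026 and 1278 CPM in shEN1 #2 (1203 ± 107 CPM and 1164 ± 137 CPM, mean ± SD, n = 4 each). High sums were found in shScr replicates 2 and 3, shEN1 #1 replicate 1 and shEN1 #2 replicate 2, which are 2 libraries of each label.

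*UQCRH*, the hinge protein next to cytochrome c1 (chromosome 1, 46769370 to 46782448), had the highest level per kilobase of all 57 genes, 498 CPM per kilobase. Its CPM was 260.2, 291, 305 and 234 in the shScr libraries, 323 and 228 in shEN1 #1 and 233 and 263 in shEN1 #2. The lowest and the highest library were both labelled shEN1. Its near-identical copy *UQCRHL* was at 5.59 to 9.79 CPM.

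*UQCRC1*, a core subunit (chromosome 3, 48636435 to 48648409), was among the steadier genes at 1.204-fold. It was at 224, 215, 234 and 235 CPM in the shScr libraries, at 197 and 226 CPM in shEN1 #1 and at 195 and 235 CPM in shEN1 #2. The 2 lowest libraries were labelled shEN1 and the others were interleaved (log2 fold change -0.09, SE 0.10, 95% interval -0.32 to 0.14, edgeR adjusted p = 1.00, exact permutation p = 0.314). *UQCRC2*, the other core subunit, varied more, 1.77-fold: 201, 218, 177 and 126 CPM in the shScr libraries, 222 and 162 CPM in shEN1 #1 and 144 and 187 CPM in shEN1 #2. It was lowest in shScr replicate 4 and shEN1 #2 replicate 1, the libraries that the first principal component set apart.

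*CYC1*, cytochrome c1 itself, was at 82.2, 81.0, 103 and 101 CPM in the shScr libraries, at 69.7 and 91.4 CPM in shEN1 #1 and at 86.3 and 118 CPM in shEN1 #2. The lowest and the highest library thus came from the different constructs, and the difference between constructs was not called (unadjusted p = 0.151 by edgeR's quasi-likelihood test). *UQCRB*, a small accessory subunit, was at 87.4, 110.2, 109 and 86.2 CPM in the shScr libraries, at 116 and 77.8 CPM in shEN1 #1 and at 76.9 and 98.9 CPM in shEN1 #2 (log2 fold change -0.09, SE 0.16, 95% interval -0.44 to 0.26, edgeR adjusted p = 1.00, exact permutation p = 0.571). Its log2 fold change lay between -0.22 (without shEN1 #1 replicate 1) and -0.0087 (without shEN1 #2 replicate 1) leaving out single libraries. Its level per kilobase was the lowest of complex III with the canonical transcript (11.3 CPM per kilobase) and 148 with the median coding transcript, so its place in the order is not set by these data. The Rieske protein gene *UQCRFS1*, at 22.9 CPM per kilobase by both lengths, was the lowest of the others.

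Complex IV reduces oxygen, and the 10 genes measured code for accessory subunits around the mitochondrially encoded core. They summed to 1289.95, 1389, 1569 and 1384 CPM in shScr replicates 1 to 4, to 1406 and 1226 CPM in shEN1 #1 and to 1202 and 1444 CPM in shEN1 #2 (1408 ± 117 CPM and 1319.6 ± 123 CPM, mean ± SD, n = 4 each). All 10 were above their own mean in shScr replicate 3, and all 10 were below it in shEN1 #1 replicate 2 and in shEN1 #2 replicate 1.

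*COX8A*, a small subunit that spans the membrane (chromosome 11, 63742092 to 63744015), was the most abundant per kilobase (369 CPM per kilobase), followed by *COX4I1* (353), the subunit through which ATP regulates the enzyme. *COX8A* was at 157, 161, 216 and 207 CPM in the shScr libraries, at 173 and 166 CPM in shEN1 #1 and at 178 and 201 CPM in shEN1 #2. *COX4I1* was at 262, 281, 296 and 278 CPM, then at 277 and 251 CPM and at 223 and 290.1 CPM, in the same order of libraries. The shEN1 libraries of *COX8A* all lay within the range of the shScr libraries.

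*COX7C*, a small membrane subunit (chromosome 5, 85913745 to 85916779), had the smallest unadjusted p of the 57 genes (0.203, edgeR's quasi-likelihood test). It was at 198, 219, 236 and 198 CPM in the shScr libraries, at 204 and 171 CPM in shEN1 #1 and at 161 and 219 CPM in shEN1 #2. The 2 lowest libraries were labelled shEN1, while the other shEN1 libraries lay within the range of shScr (log2 fold change -0.17, SE 0.13, 95% interval -0.46 to 0.11, edgeR adjusted p = 1.00, exact permutation p = 0.229).

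*COX5B*, a subunit that binds zinc (chromosome 2, 98262525 to 98264846), was at 93.1, 97.4, 113 and 96.1 CPM in the shScr libraries, at 93.8 and 86.9 CPM in shEN1 #1 and at 81.1 and 107 CPM in shEN1 #2. It had the same pair of low libraries as *COX7C* and the same high one (log2 fold change -0.12, SE 0.12, 95% interval -0.38 to 0.15, edgeR adjusted p = 1.00, exact permutation p = 0.343). *COX7B* was at 80.4, 100.3, 94.7 and 61.4 CPM in the shScr libraries, at 103 and 69.7 CPM in shEN1 #1 and at 60.6 and 83.9 CPM in shEN1 #2. *COX6B1*, on the side of the enzyme that faces cytochrome c, was at 70.05, 74.8, 106 and 77.3 CPM, then at 99.1 and 63.7 CPM and at 75.4 and 76.8 CPM. These were the genes of complex IV that varied most (1.70-fold and 1.67-fold), and each had high and low libraries under both labels.

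**Figure D1:**
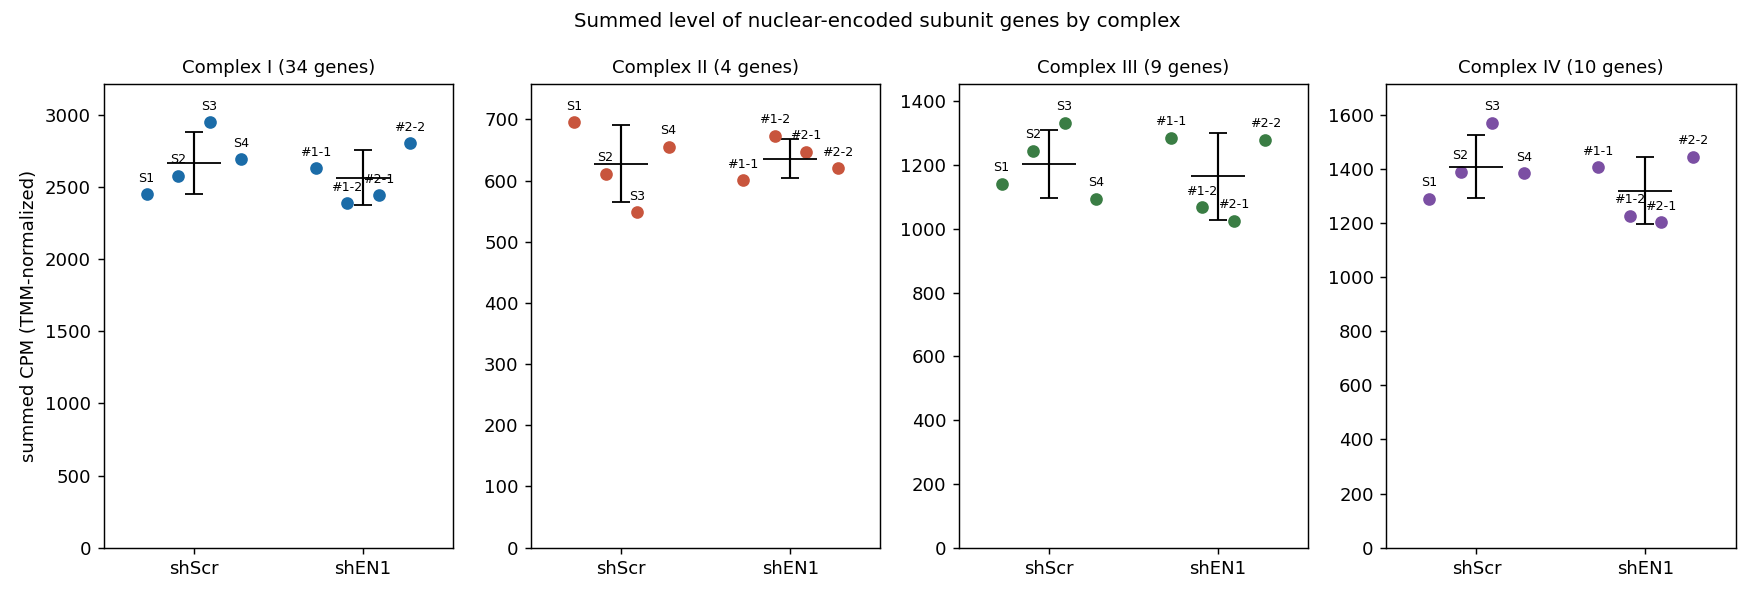
Summed CPM of the genes of each complex (vertical axes, from 0) in each library, with points for the libraries (S1 to S4, shScr replicates 1 to 4; #1-1 to #2-2, construct and replicate of shEN1) and lines for the mean ± SD of each label (n = 4). The labels overlap in each of the 4 complexes, and shScr replicate 3 is the highest library of complexes I, III and IV and the lowest of complex II.

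**Figure D2:**
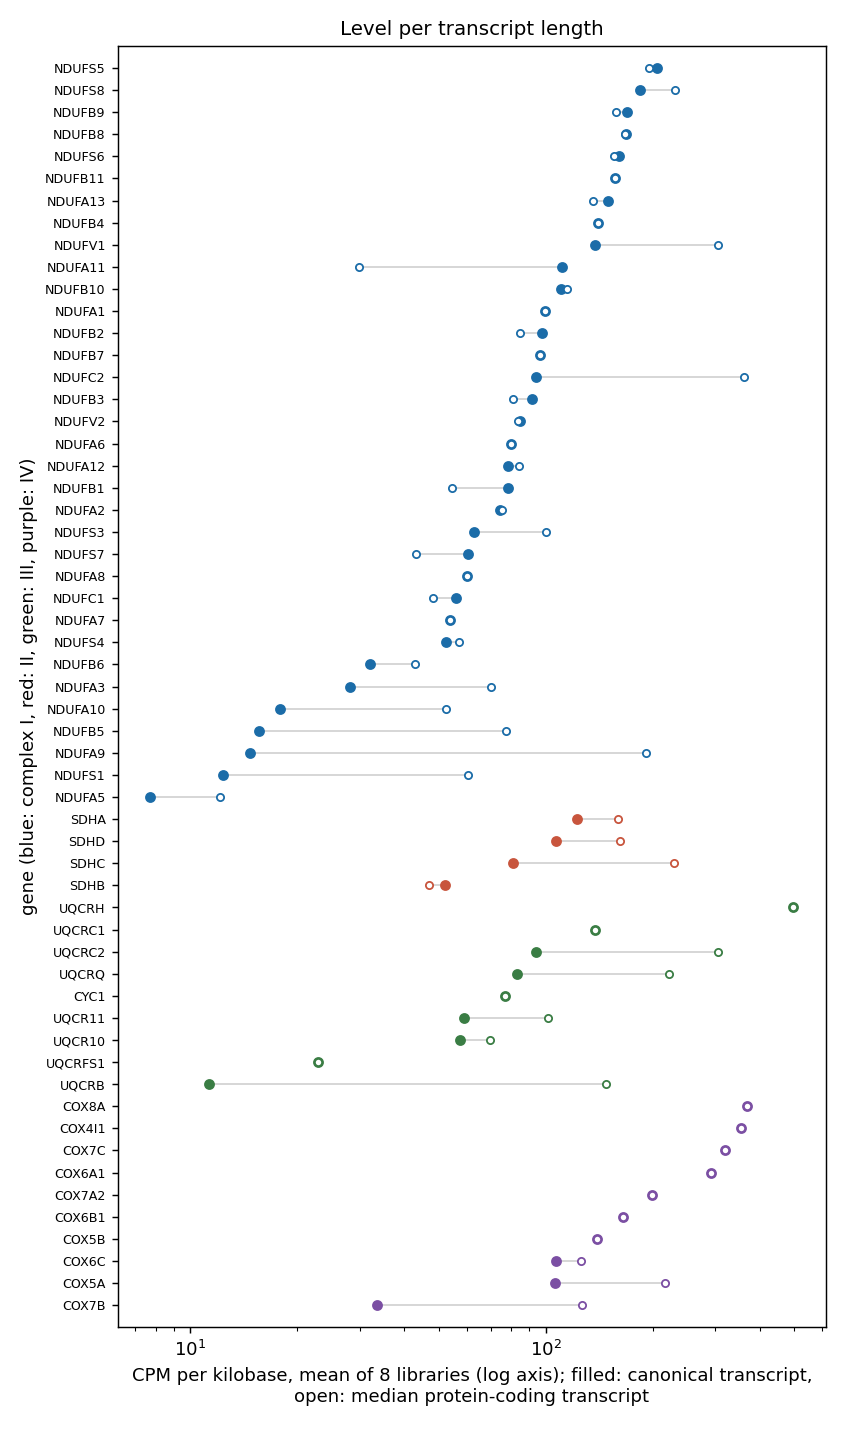
Mean level of each gene over the 8 libraries in CPM per kilobase (horizontal log axis), by the canonical transcript (filled) and by the median protein-coding transcript (open), ordered within each complex. *UQCRH* is highest at 498 CPM per kilobase by both lengths, and 14 genes have transcript lengths that differ over 1.8 times, among them *UQCRB* (11.3 and 148).

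Between the labels as a whole, 0 of the 57 genes were called (edgeR's quasi-likelihood test, Benjamini-Hochberg adjusted p below 0.05), with 0.0% of the 14333 tested genes called. DESeq2 called 0 of the 57 and 2 of all genes (0.014%). At an unadjusted p below 0.05 there were 0 of the 57 and 44 of all genes (0.307%). The log2 fold changes of the 57 genes lay between -0.24 and 0.17 with SEs of 0.10 to 0.28, and their 95% intervals lay within -0.86 and 0.55, so for each gene the interval left out a change of 2-fold in either direction. The labels overlapped in all 57 genes, and were apart in 60 of the 14333 tested genes (0.419%). In bulk RNA a smaller share of cells and less RNA per cell cannot be told apart.

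Most of these small differences had the same sign. A log2 fold change below 0 was found for 51 of the 57 genes, against 51.1% of all tested genes, and the median was -0.06 against -0.0028 over all tested genes. By complex, the count below 0 was 30 of 34 in complex I (median -0.06), 3 of 4 in complex II (-0.02), 8 of 9 in complex III (-0.05) and 10 of 10 in complex IV (-0.09). The 6 genes above 0 were *NDUFS7*, *SDHA*, *NDUFA5*, *NDUFS1*, *UQCRFS1* and *NDUFC2*, of which the last 3 were at 0.0055 or less. The genes are not independent of each other, since they varied together from library to library, so the count is not a test of the labels.

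The size of the shift depended on which libraries were used. Leaving out single libraries kept the median below 0 in all 8 fits, with 36 to 52 of 57 genes below 0. The median moved to -0.017 without shScr replicate 3, to -0.021 without shEN1 #1 replicate 2, to -0.04 without shEN1 #2 replicate 1 and to -0.12 without shEN1 #2 replicate 2, and the count below 0 was 36, 37, 43 and 52 of 57. Without both libraries that stand apart on the first principal component, 48 of 57 were below 0 (median -0.04). A smaller fit also left out shScr replicate 3 and shEN1 #1 replicate 1, at one end of the second component. It kept shScr replicate 1 and shEN1 #1 replicate 2, which lay at the other end. With only shScr replicates 1 and 2, shEN1 #1 replicate 2 and shEN1 #2 replicate 2, 28 of 57 were below 0 (median 0.01), and 6 genes had an unadjusted p below 0.05 in edgeR's test (*NDUFA5*, *NDUFS4*, *NDUFS7*, *SDHD*, *UQCRC2* and *CYC1*, with 10.6% of all genes at that p and 0 of the 57 called after adjustment).

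**Figure D3:**
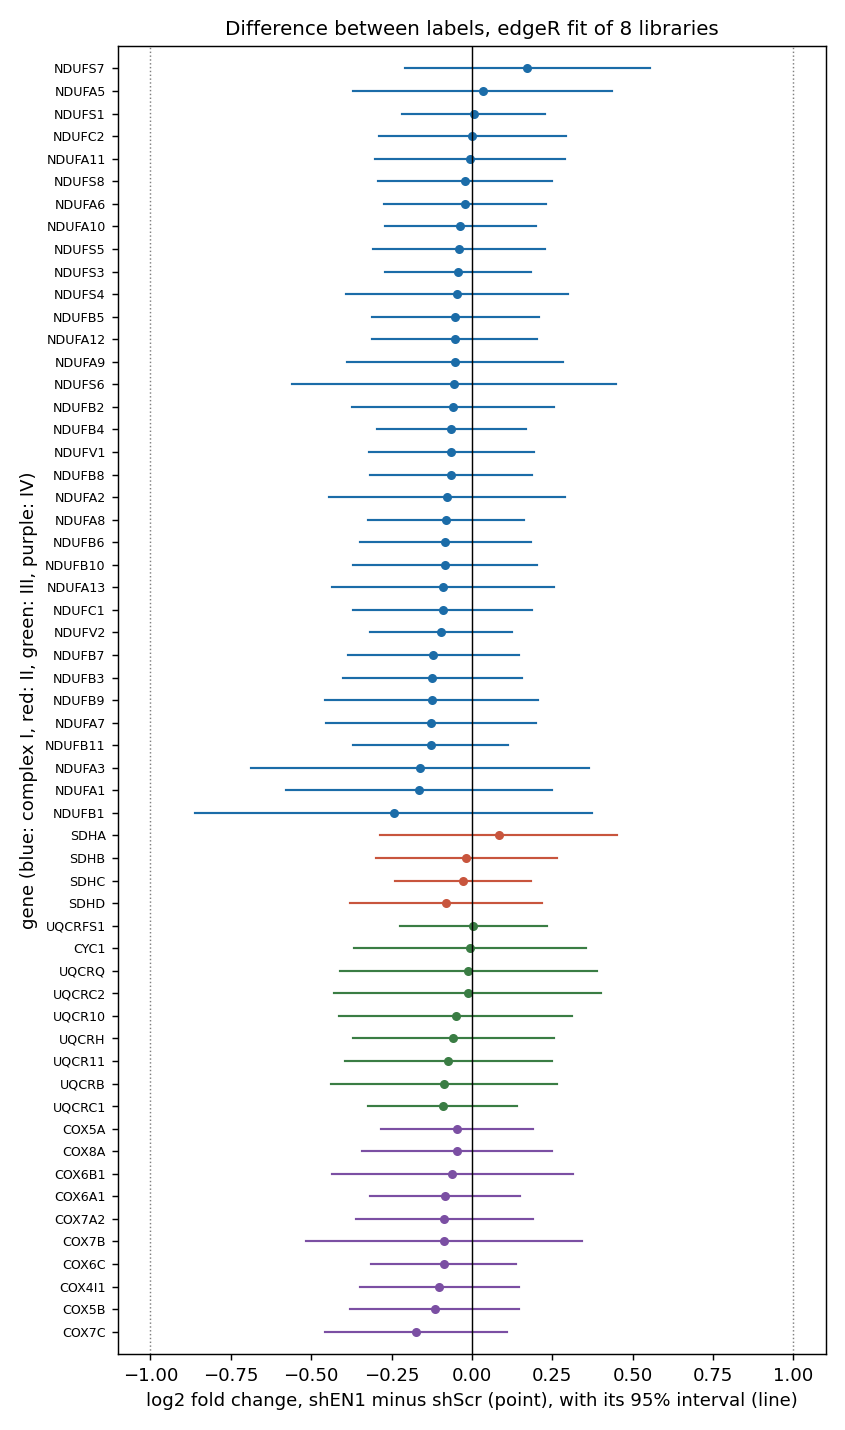
Log2 fold change of each gene, shEN1 minus shScr (points), with its 95% interval (lines), from edgeR's fit of the 8 libraries, ordered within each complex, with dotted lines at 2-fold. Each of the 57 intervals includes 0, and 51 points lie below it.

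The constructs were also compared with shScr separately, with the same shScr libraries in both. For shEN1 #1, 0 of the 57 genes were called (0.0% of all tested genes), 46 had a log2 fold change below 0 (51.7% of all tested genes) and the median was -0.10. With shEN1 #2 there were 0 called (0.0%) and 43 below 0 (51.9%), with a median of -0.05. Between the constructs 0 of the 57 were called (0.0%), the median difference, shEN1 #2 minus shEN1 #1, was 0.03, and *NDUFA11*, an accessory subunit of the membrane arm, had the smallest unadjusted p (0.129, edgeR's quasi-likelihood test).

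The genes varied less between libraries than all tested genes did, which were not matched to them in level. The ratio of the highest to the lowest library had a median of 1.39 over the 57 genes and of 1.69 over all tested genes, and it was above 2 in 2 of the 57 genes (*NDUFB1* and *NDUFA3*) and in 35.8% of all tested genes.

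What variation there was ran through many of the genes at once. On log2(CPM + 0.5), 49 of the 57 genes were above their mean over the 8 libraries in shScr replicate 3 (median deviation 0.18) and 42 in shEN1 #2 replicate 2 (0.10), whereas only 6 were above it in shEN1 #1 replicate 2 (-0.16) and 6 in shEN1 #2 replicate 1 (-0.11). Over all tested genes the 4 medians were 0.012, 0.0051, -0.0012 and -0.0031. The library labelled shScr replicate 3 was the highest of the 8 in 27 of the 57 genes (14.6% of all tested genes) and shEN1 #1 replicate 1 in 13 (14.0%). The lowest library was shEN1 #1 replicate 2 in 19 genes (9.52%), shEN1 #2 replicate 1 in 17 (16.3%) and shScr replicate 1 in 9 (10.9%).

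**Figure D4:**
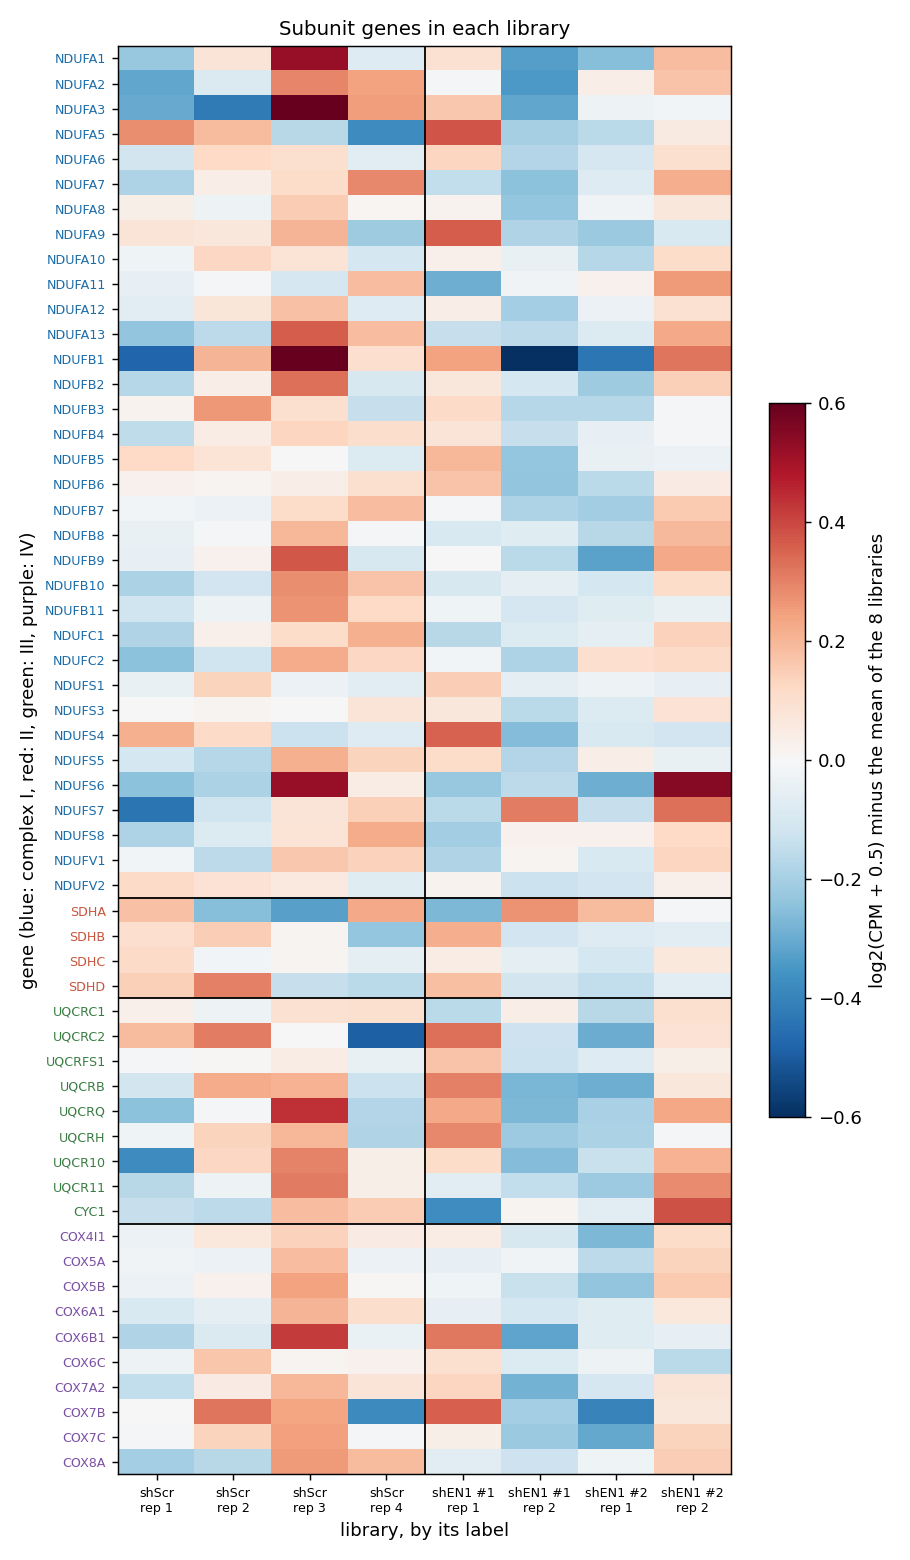
Deviation of each gene (rows, grouped by complex) from its mean over the 8 libraries on the log2(CPM + 0.5) scale (color), in each library (columns). The column of shScr replicate 3 is mostly red (49 of 57 genes above their mean) and those of shEN1 #1 replicate 2 and shEN1 #2 replicate 1 mostly blue (6 of 57 above), with *SDHA* running the other way.

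The respiratory chain genes have short transcripts, with a median canonical length of 758 bases against 3230 bases over tested genes, and transcript length moved with the same libraries. Over all 931 tested genes with a canonical transcript of 1000 bases or fewer, the median deviation was 0.15 in shScr replicate 3, 0.07 in shEN1 #2 replicate 2, -0.09 in shEN1 #1 replicate 2 and -0.11 in shEN1 #2 replicate 1. In the 35 subunit genes of this length the 4 medians were 0.20, 0.12, -0.16 and -0.09, and in the 22 longer ones 0.09, 0.07, -0.13 and -0.15, while tested genes of over 1000 and up to 3000 bases had 0.04, 0.01, -0.01 and -0.04 and those of over 3000 bases -0.03, -0.01, 0.01 and 0.03. Between the labels, 34 of the 35 short subunit genes had a log2 fold change below 0 (median -0.08) and 17 of the 22 longer ones (median -0.03), beside 67.0% of all tested genes of 1000 bases or fewer (median -0.05), 57.3% of those up to 3000 bases (median -0.02) and 45.0% of longer ones (median 0.01). The part of transcript length in the differences of the subunit genes was not tested.

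**Figure D5:**
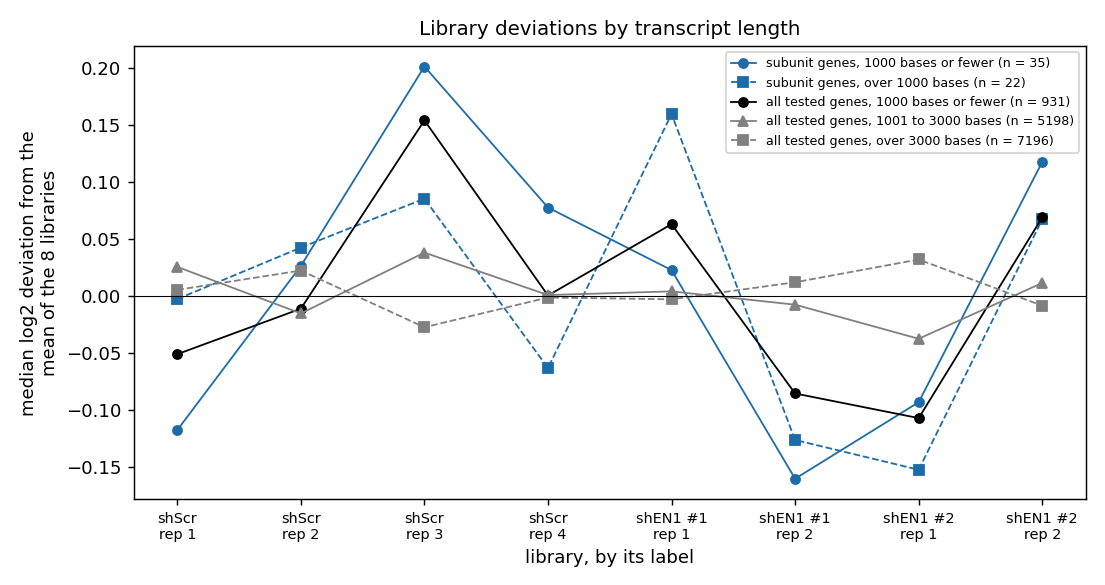
Median deviation of subunit genes (blue) and of all tested genes (black and grey) from their mean over the 8 libraries, on the log2(CPM + 0.5) scale, in each library, split by the length of the canonical transcript. Short tested genes and short subunit genes both peak in shScr replicate 3 (0.15 and 0.20) and are low in shEN1 #1 replicate 2 (-0.09 and -0.16).

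Other genes of oxidative phosphorylation were read from lists of the pathway, and 0 genes of any list were called or had an unadjusted p below 0.05 in edgeR's test. Of the 18 genes of ATP synthase, which uses the proton gradient, 17 had a log2 fold change below 0 (median -0.06). The smallest p was that of *ATP5MF*, a subunit of its membrane part, with 128, 139, 164 and 134 CPM in the shScr libraries, 129 and 111 CPM in shEN1 #1 and 118 and 142 CPM in shEN1 #2 (log2 fold change -0.18, SE 0.12). Among 45 tested assembly factors, which build the complexes and are not part of them, 31 were below 0 (median -0.03), led by *SDHAF1*, needed for the iron-sulfur clusters of *SDHB* (7.26, 8.36, 9.04 and 8.70 CPM in the shScr libraries, 6.44 and 7.06 CPM in shEN1 #1 and 4.65 and 7.80 CPM in shEN1 #2, log2 fold change -0.36, SE 0.20, unadjusted p = 0.0984 in edgeR's test). Of 16 genes of the mobile carriers and of side entries to the chain, 9 were below 0 (median -0.03), with the smallest p for *PDSS2*, which helps make the ubiquinone side chain (35.2, 36.3, 35.3 and 26.2 CPM, 29.9 and 29.4 CPM, and 25.9 and 29.9 CPM in the same order, log2 fold change -0.21, SE 0.13).

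Of 12 tested regulators of these genes 4 had a log2 fold change below 0 and 8 above (median 0.02), and the smallest p was that of *PPRC1*, a coactivator at 128, 106, 122 and 111 CPM in the shScr libraries, at 107 and 141 CPM in shEN1 #1 and at 114 and 140.4 CPM in shEN1 #2 (log2 fold change 0.11, SE 0.12). The transcripts of the factors whose letters were searched in the promoters were all detected: *NRF1* at 22.4 to 31.3 CPM, *GABPA* at 29.04 to 40.1 CPM and *YY1* at 104 to 144 CPM. The coactivator *PPARGC1A* had counts only in shEN1 #2 replicate 1 (0.102 CPM) and did not pass the filter, while its relative *PPARGC1B* was at 11.6 to 20.5 CPM.

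The subunit isoforms that are restricted to heart, muscle, testis or hypoxic cells were at or near 0. Of 7 such genes only *COXFA4L2* (also known as NDUFA4L2) passed the filter. It was at 0.603, 0.728, 0.746 and 1.17 CPM in shScr replicates 1 to 4, at 0.868 and 0.706 CPM in shEN1 #1 and at 0.864 and 1.01 CPM in shEN1 #2. The isoforms *COX6A2*, *COX7B2* and *COX8C* had 0 counts in all 8 libraries, which allows at most 0.0921 CPM, whereas the ubiquitous *COX8A* was at 157 to 216 CPM. The 13 mitochondrially encoded subunits were not analysed here.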

How the data were processed

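RNA-seq of SUIT2 cells was analysed in 8 libraries, grouped by the shRNA in their titles (4 shScr, 2 shEN1 #1, 2 shEN1 #2). The authors deposited a table of read counts for each library, made per the labels with HISAT2 and featureCounts, without normalization. The study's methods name hg19 for human reads, whereas the processing field of the deposited records lists mm9. The annotation and strand setting are not given in the sources used here. Totals were 33423590 to 37810604 counts, so counting error was small beside the spread between libraries.

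The 57 genes were matched by symbol to gene numbers through RefSeq, used for names and promoters only, which named 23696 of 25702 identifiers. The members and lists were chosen with earlier results of these data known. Positions and canonical transcript lengths came from GENCODE on GRCh37 (for *NDUFB6*, the longest principal transcript), and per-kilobase levels were repeated with median coding transcript lengths, a choice added after seeing the data.

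Genes were filtered with filterByExpr (minimum count 10, 14333 kept) and fitted over all tested genes with edgeR 4.0.16 (TMM, robust glmQLFit, glmQLFTest) in R 4.3.3, shEN1 against shScr without a block, as the study's methods name none, although the study used DESeq2, with p adjusted by Benjamini-Hochberg. A fit with 3 groups compared the constructs, all 8 libraries sharing the spread. Single genes were also compared by a two-sided exact permutation test over 70 assignments, whose smallest p is 0.0286. Alternatives were DESeq2 1.42.0, limma-voom 3.58.1, other scalings and filters, left-out libraries and a block on replicate numbers. Same-numbered libraries correlated between -0.332 and 0.437 in their deviations from the mean of their group. With 2 libraries per construct these deviations mirror each other, so this cannot decide whether the numbers pair the libraries. Scripts were tested on simulated data, and the condition for passing applied only to a spread smaller than that of these data.

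Values in every library are given, per complex, for the 2 highest genes and the lowest per kilobase, the 2 with the largest absolute log2 fold changes (with the fold change) and the 2 with the largest ratios of highest to lowest library, and for other pathway lists for the gene with the smallest p. Genes named beyond this rule, such as *UQCRFS1*, *SDHC*, *NDUFA11*, the near-identical copies, the regulators and the isoforms, were named after their values were seen.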

Additional observations from a re-analysis of the deposited data

Results flagged for a closer look

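In groups of 4 libraries, a library was singled out when its gap to the next as a share of the range of its label exceeded Dixon's 95% critical value. This was met in 6 of the 124 groups examined, where chance gives about 1 in 20, or 6.2. *NDUFS6*, a zinc-binding accessory subunit of complex I, was at 118 CPM in shEN1 #2 replicate 2 against 66.0 to 72.6 CPM in the other libraries labelled shEN1. *NDUFB8* was at 130.4 CPM in shScr replicate 3 against 110.0 to 113 CPM in the other shScr libraries, and *COX5A* in the same library at 141 CPM against 121 to 122 CPM. *NDUFS1*, the largest iron-sulfur subunit of complex I, was at 158 CPM in shScr replicate 2 against 138 to 141 CPM, and at 159 CPM in shEN1 #1 replicate 1 against 138 to 141 CPM. *SDHB* was at 61.4 CPM in shEN1 #1 replicate 1 against 48.7 to 50.5 CPM.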

How the results depend on the processing

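The count of 0 subunit genes called held under each alternative that was run. Over all tested genes 0 were called, against 2 by DESeq2, 1 with the replicate block, 1 without both libraries that stand apart, 1 with 4 libraries only, 0 to 1 leaving out single libraries and 44 at an unadjusted p below 0.05. The number of subunit genes with a log2 fold change above 0 was 6, and became 29 with the replicate block, 29 with 4 libraries only and 5 to 21 leaving out single libraries, whose medians ran from -0.12 to -0.017. The block on replicate numbers, which are not known to pair the libraries, gave a median of 0.0042 and reversed *NDUFB1* (log2 fold change 0.060). With this block 1 subunit gene (*NDUFS7*) had an unadjusted p below 0.05 in edgeR's test, with 271 of all genes. With 4 libraries only, *NDUFB1* (0.023), *UQCRC1* (0.066) and *COX5B* (0.022) reversed. Leaving out single libraries moved *SDHA* between -0.0057 and 0.18, *SDHD* between -0.16 and 0.014, *UQCRC1* between -0.14 and -0.054, *COX7C* between -0.25 and -0.11 and *COX5B* between -0.19 and -0.052. The cause of these changes was not tested. Other scalings, filters, limma-voom and the fit with 3 groups called 0 subunit genes and kept the sign of each fold change printed with its statistics for complexes I to IV, while the number above 0 was 9 with no filter and 5 or 6 in the others. The summed CPM of each complex kept its sign between labels under the 3 other scalings. Depth did not limit these genes, which had at least 524 counts, but 4 libraries a label with this spread gave 95% intervals with a median full width of 0.57 (log2), which limits the differences that could be detected.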

Other observations

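Other mitochondrial gene groups were also uneven across the libraries. The 77 tested genes of the mitochondrial ribosome, which translates the mitochondrially encoded subunits, had median deviations on log2(CPM + 0.5) of 0.06 in shScr replicate 3, -0.04 in shEN1 #1 replicate 2 and -0.15 in shEN1 #2 replicate 1, where 6 of the 77 were above their mean. Between labels 51 of them had a log2 fold change below 0 (median -0.03), none called, and the smallest p was that of *MRPL49*, at 140.1, 146, 134 and 131 CPM in shScr replicates 1 to 4, at 124 and 124 CPM in shEN1 #1 and at 113 and 135 CPM in shEN1 #2 (log2 fold change -0.15, SE 0.10). The 14 genes of the TCA cycle ran the other way in shScr replicate 3, with a median deviation of -0.15 and 4 of 14 above their mean, as *SDHA* did. Their highest median was in shScr replicate 1 (0.11), and 8 of the 14 were below 0 between labels (median -0.0069), with the smallest p for *OGDH*, at 142, 121, 118 and 134 CPM in shScr replicates 1 to 4, at 113 and 157 CPM in shEN1 #1 and at 133 and 146 CPM in shEN1 #2 (log2 fold change 0.09, SE 0.12). ATP synthase genes had medians of 0.19 in shScr replicate 3, -0.19 in shEN1 #1 replicate 2 and -0.16 in shEN1 #2 replicate 1.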
